A study of Rattus norvegicus with 27 samples.

Results

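The respiratory chain and the ATP synthase sit in the inner membrane of mitochondria. Complex I (NADH dehydrogenase) and complex II (succinate dehydrogenase) pass electrons to ubiquinone, complex III passes them to cytochrome c, complex IV (cytochrome c oxidase) passes them to oxygen, and complex V, the ATP synthase, makes ATP from the proton gradient that complexes I, III and IV build. Secreting acinar cells of salivary glands draw on this ATP for ion pumping and for making and releasing protein, and in several tissues single subunits of complex IV are swapped for tissue-specific isoforms. The genes described here are the nuclear genes whose symbol begins with Nduf, Uqcr, Atp5 or Sdh, or is a Cox4 to Cox8 symbol with a suffix, each read by its brightest probe set, the one with the highest mean over all arrays. Of 14217 genes with a probe set of their own, 89 met this rule: 36 of complex I, 3 of complex II, 7 of complex III, 17 of complex IV including the pseudogene Cox6c-ps1, 16 of complex V, and 10 assembly factors of complexes I and II with a Ndufaf or Sdhaf symbol. Complexes were assigned by symbol, so Ndufa4 and Ndufa4l2 count under complex I throughout, although Ndufa4 is now placed in complex IV. A further 7 probe sets carried several symbols, 1 of them of this family, and were not used.

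The values come from acinar cells of the parotid, the serous salivary gland, taken by laser capture in Sprague Dawley rats. The 9 ages, with E for days of gestation and P for days after birth, were E18 and E20, then P0, then P2 and P5, then P9 and P15, and last P20 and P25. Each age had 3 arrays, 27 in all, and each array stood for its own litter. No group had a treatment or a mutation. The study drew 4 stages on these same arrays, which are used here: stage 4 (P20 and P25, 6 arrays), stage 3 (P9 and P15, 6), stage 2 (P2 and P5, 6) and stage 1 (E18, E20 and P0, 9). Sections were of halved heads at the ages to P5 and of the dissected gland at later ages, so development and preparation cannot be told apart between stages 3 and 2, nor in any contrast that spans that step.

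All levels are log2 values of the robust multi-array average (RMA), so 1 unit is a doubling. Changes are the later group minus the earlier one with the standard error (SE) of a limma fit to all 27 arrays, and a gene was called when its Benjamini-Hochberg adjusted p over the 31042 probe sets was under 0.05. Parotid acinar markers averaged 4.45 to 6.50 in stage 1, 8.33 to 9.19 in stage 2 and 12.68 to 13.11 in stage 4. In stage 1 they lay about the array medians (5.91 to 6.13), so the markers do not show the label in the earliest captures. Between stages 4 and 1 other cell types' markers moved too. Fibroblast markers averaged 9.25 to 10.34 in stage 4, against 10.54 to 11.60 in stage 1 (6 of 8 lower). Cartilage and bone markers averaged 4.62 to 5.56, against 5.90 to 9.73 (3 of 7 lower), and lymphocyte and plasma cell markers 6.26 to 6.89, against 4.02 to 4.54 (5 of 6 higher). Over all probe sets 17.8% were called lower and 27.2% higher. Epidermis and hair markers averaged 4.64 to 5.21, against 4.70 to 8.58, with overlap, and 1 of 6 was lower, near the share over all probe sets. In stage 1 they were highest in the first replicates of E18, E20 and P0 (8.48, 8.58 and 8.17). Skeletal muscle markers, however, averaged between 4.96 and 11.96 across arrays, with 8 arrays over 9 (E18 replicate 1, E20 replicate 1, P0 replicate 1, P5 replicates 1 and 3, P9 replicates 2 and 3 and P25 replicate 3). The SD of the values of an array narrowed with age, to 2.05 to 2.26 in stage 4 against 2.28 to 2.41 in stage 1, and probe sets with a mean level of 8 or more fell by a median of 0.38 between those stages while the median of all probe sets rose by 0.19. Changes below are therefore also read against these medians. In such bulk captures fewer cells of a type and less RNA per cell cannot be told apart.

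Promoters are shown for 6 genes that the results turn on: Cox6b2 with the deepest fall, Ndufv3 with the highest rise, Sdhb and Atp5pf as chain and synthase subunits that fell, and the muscle isoforms Cox6a2 and Cox8b. Each is the 250 bases before the RefSeq gene start, 5′ to 3′ on the gene's strand, in build GRCr8, with matches to the letters of known motifs in capitals.
Cox6b2 (chr1:78122621-78122870, + strand): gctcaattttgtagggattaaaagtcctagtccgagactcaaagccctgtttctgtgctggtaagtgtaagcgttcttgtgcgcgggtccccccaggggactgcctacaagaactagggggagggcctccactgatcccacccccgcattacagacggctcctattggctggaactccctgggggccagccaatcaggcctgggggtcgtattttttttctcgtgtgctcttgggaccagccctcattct
Ndufv3 (chr20:9613536-9613785, + strand): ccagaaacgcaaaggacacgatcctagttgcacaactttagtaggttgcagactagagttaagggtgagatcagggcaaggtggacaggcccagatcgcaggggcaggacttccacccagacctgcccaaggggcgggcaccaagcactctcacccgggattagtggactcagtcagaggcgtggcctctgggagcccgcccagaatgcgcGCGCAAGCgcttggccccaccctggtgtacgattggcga
Sdhb (chr5:158547684-158547933, + strand): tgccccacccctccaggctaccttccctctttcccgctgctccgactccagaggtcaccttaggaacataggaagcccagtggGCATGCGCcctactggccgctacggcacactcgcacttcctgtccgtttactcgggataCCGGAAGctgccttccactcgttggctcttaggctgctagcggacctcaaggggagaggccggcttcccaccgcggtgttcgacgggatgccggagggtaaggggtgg
Atp5pf (chr11:37375102-37375351, - strand): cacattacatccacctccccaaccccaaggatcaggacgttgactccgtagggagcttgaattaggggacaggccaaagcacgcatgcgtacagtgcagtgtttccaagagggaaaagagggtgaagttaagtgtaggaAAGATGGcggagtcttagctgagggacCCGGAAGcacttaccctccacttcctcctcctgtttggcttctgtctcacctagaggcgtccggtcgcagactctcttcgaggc
Cox6a2 (chr1:192219717-192219966, - strand): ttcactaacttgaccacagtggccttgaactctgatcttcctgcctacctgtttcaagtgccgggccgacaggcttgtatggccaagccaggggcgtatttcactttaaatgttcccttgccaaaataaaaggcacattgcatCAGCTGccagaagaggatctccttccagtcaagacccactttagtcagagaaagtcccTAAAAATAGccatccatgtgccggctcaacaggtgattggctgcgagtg
Cox8b (chr1:205408274-205408523, - strand): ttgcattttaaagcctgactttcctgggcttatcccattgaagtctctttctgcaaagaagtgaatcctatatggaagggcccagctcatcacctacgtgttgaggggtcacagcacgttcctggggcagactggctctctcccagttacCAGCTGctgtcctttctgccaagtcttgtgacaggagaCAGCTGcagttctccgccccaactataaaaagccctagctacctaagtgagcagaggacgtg

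The capitals mark 6 motifs read on both strands. For regulators of nuclear mitochondrial genes these were GCNTGCGC for NRF1, CCGGAAG for the ETS factor GABPA, AAGATGG for YY1 and AAGGTCA for the estrogen-related receptors (ERR). TAAAAATAG for MEF2 and CAGCTG for an E-box were added after the sequences were seen. The study gives CAGCTG as a binding site of the acinar factor Mist1, so these letters are not particular to muscle. Of the 89 genes 81 had a promoter entry. The GABPA letters stood in 24 of these 81 (29.6%), against 7.27% of all 33469 promoters of the same length, and the NRF1 letters in 21 (25.9%), against 7.77%. The ERR letters stood in 6 (7.41%, against 3.99% of all promoters) and the YY1 letters in 4 (4.94%, against 4.62%). Ndufv3 held the NRF1 letters, Sdhb the NRF1 and GABPA letters and Atp5pf the GABPA and YY1 letters, while Cox6b2 held none of the 6 motifs. Cox6a2 was the only one of the 81 with the MEF2 letters, which stood in 0.463% of all promoters. Cox6a2 and Cox8b both held the E-box letters, which stood in 8 of the 81 (9.88%) and in 12% of all promoters.

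The first question was whether transcripts of the chain change with age at all. Most were steady. The age means of a gene spanned a median of 0.78 units, against 1.20 over all probe sets, and 65 of the 89 spanned less than 1 unit. The moderated F test over 9 ages called 10 of 89 (11.2%), against 24.5% of all probe sets tested: Ndufb7, Ndufv3, Sdhb, Uqcrq, Cox5b, Cox6b2, Cox6c, Cox7a2l, Atp5pf and Sdhaf2. No other Ndufs or Ndufv gene was among them. Without the 8 arrays with high muscle markers 3 were left (Ndufb7, Cox6b2 and Sdhaf2), and the same 3 were called when the mean levels of muscle, epidermis and cartilage marker lists were covariates. With quantile normalisation 5 were called, of which Ndufs7 was not among the 10.

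**Figure D1:**
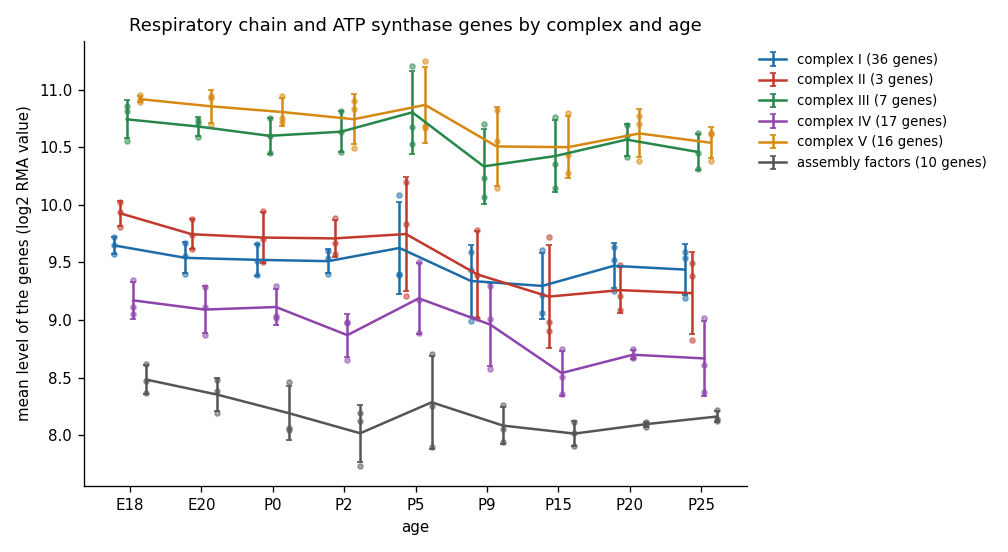
Mean log2 RMA value of the genes of each complex (y axis) at each of 9 ages (x axis, equal spacing), with points for the 3 arrays of an age and lines and bars for their mean ± SD. Each line moved little: every mean was lower at P9 than at P5, where 1 of 3 arrays stood above the others. Complex III was lowest at P9 and all other lines at P15. Complex IV fell from 8.96 at P9 to 8.54 at P15, while its genes at mean level 8 or higher stood at 10.92 and 10.96. Heights of different lines cannot be compared, since they rest on different probe sets.

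By age, the median gene of the chain lay 0.08 below its E18 level at E20, 0.10 at P0, 0.18 at P2, 0.04 at P5, 0.35 at P9, 0.38 at P15, 0.27 at P20 and 0.36 at P25. The level at P5 rested on 1 array: the genes averaged 10.12, 9.44 and 9.57 in its replicates, and without replicate 1 the median gene lay 0.24 below its E18 level. The median change at P9 against P5, across the change of preparation, was -0.30 with all P5 arrays and -0.13 without that one. Between stages 3 and 2 the median change was -0.27, against 0.07 for all probe sets and -0.15 for the brighter ones. Without the 8 arrays with high muscle markers it was -0.13, and the medians of complex III and the assembly factors, -0.19 and -0.14 with all arrays, were then 0.04 and 0.14. No gene passed limma's threshold in that step, where 0.760% of all probe sets did. Between stages 2 and 1 none passed either, against 2.96% of all probe sets. None passed in the contrast of the middle stages 2 and 3 against the outer stages 1 and 4, against 3.40%. At an unadjusted p under 0.05 there were 30, 3 and 10 genes in these contrasts, in that order. Those counts cannot be set against the shares above, which are of adjusted p.

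The widest contrast set stage 4 against stage 1. Here 29 of 89 genes were called (32.6%), against 45.0% of all probe sets: 24 were lower (against 17.8% of all probe sets) and 5 higher (5.62%, against 27.2%). The median change was -0.23, which is 0.42 below the median of all probe sets and 0.15 above that of the brighter ones. Genes of the chain at mean levels of 8 to 9, 9 to 10, 10 to 11 and 11 to 12 had medians of -0.01, -0.11, -0.28 and -0.33, against -0.36, -0.38, -0.39 and -0.44 over all probe sets of the same levels. At dimmer levels the order was reversed: the 7 genes at 6 to 8 had a median of -0.35, against -0.09 over all probe sets, and the 5 at 4 to 6 one of 0.04, against 0.41. Of all probe sets at 8 to 9, 9 to 10, 10 to 11 and 11 to 12, 49.2%, 56.1%, 62.3% and 68.6% were called. Of the 89 genes 76 had a mean level of 8 or more, so the shares over all probe sets are not matched to them in level. Fibroblast markers were lower and lymphocyte markers higher in the same contrast, by the values above, and their part in it was not tested. The direction of the set depended on scaling. With quantile normalisation, which gives every array the same spread, 14 were higher and 10 lower, 13 of the 29 calls were shared and the median change was -0.03. In that fit 33.8% of all probe sets were called. With the means of the same 3 marker lists as covariates 14 genes were called and all were lower. Of the 24 falls, 7 passed in all 13 other settings and in each of the 27 fits without 1 array: Ndufb7, Sdhb, Cox5b, Cox6b2, Atp5mk, Atp5pf and Sdhaf2. None of the 5 rises did. Leaving out P20 replicate 2 left 16 calls.

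**Figure D2:**
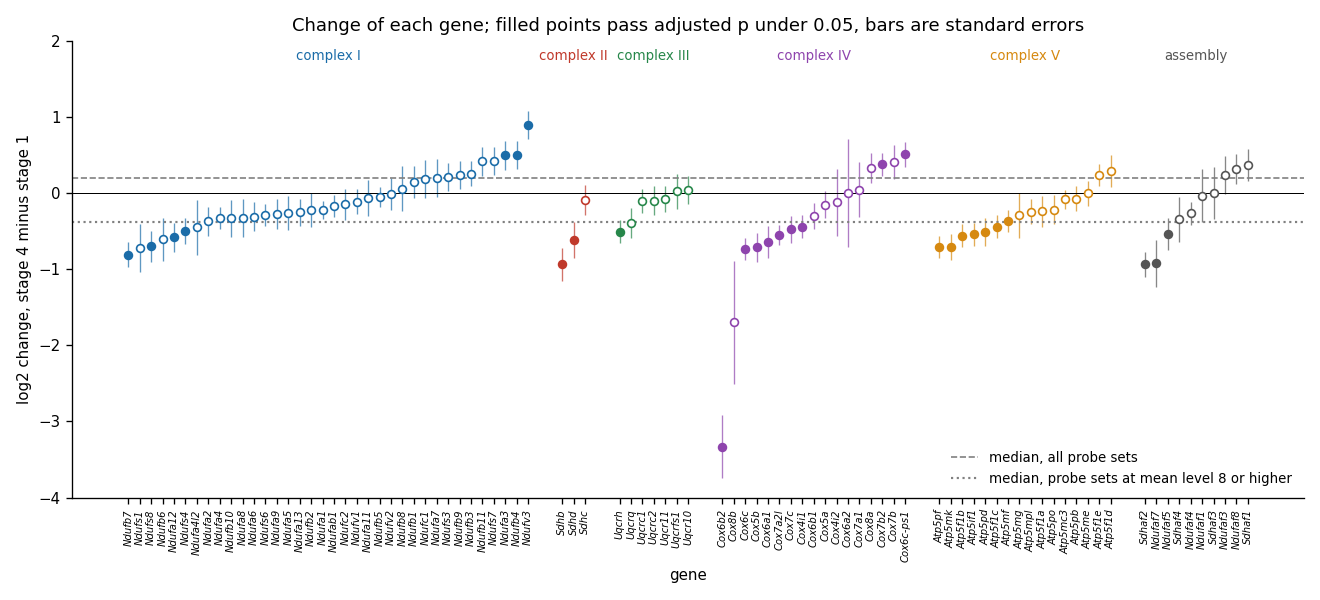
Log2 change of each gene in stage 4 minus stage 1 (y axis, ± SE of the limma fit), ordered within each complex, with filled points for adjusted p under 0.05. The dashed line is the median of all probe sets (0.19) and the dotted line that of probe sets at mean level 8 or higher (-0.38). Most points lie between -1 and 1, and Cox6b2 stands alone at -3.33.

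Between the complexes, median changes in stage 4 against stage 1 were -0.62 in complex II, -0.30 in complex IV, -0.27 in complex V, -0.20 in complex I, -0.15 in the assembly factors and -0.10 in complex III. Complex II rests on 3 genes, and without the 8 arrays with high muscle markers its median was -0.31. Since the complexes are read on the same arrays, their difference was also taken within each array, of which only the shift between stages can be read. The mean of complex I minus that of complex IV was 0.51 to 0.98 in stage 4 (median 0.83), against 0.27 to 0.61 in stage 1 (median 0.48), with a narrow overlap. Without Cox6b2 this was 0.31 to 0.75, against 0.22 to 0.66. Complex I minus complex V was -1.20 to -1.03 in stage 4, against -1.39 to -1.17 in stage 1. The stages overlapped for every pair of complexes, and these differences were not tested. Calls were 7 lower of 16 in complex V with none higher, 7 lower and 2 higher of 17 in complex IV, 4 lower and 3 higher of 36 in complex I, 2 lower of 3 in complex II, 1 lower of 7 in complex III and 3 lower of 10 among the assembly factors. Over all probe sets 17.8% were lower and 27.2% higher. The share of lower calls was below this in complexes I and III, and that of higher calls in every complex. As above, the shares over all probe sets are not matched in level to these genes. The counts were not tested between complexes. Both higher calls of complex IV, Cox6c-ps1 and Cox7b2, had mean levels of 4.76 and 2.65, near the low end of the array's scale.

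In complex I the deepest fall was that of Ndufb7, a supernumerary subunit of the membrane arm that carries disulfide bonds. It read 9.68, 10.38 and 9.70 in the 3 P25 arrays, against 11.20, 11.53 and 11.42 in the E18 arrays. All 3 P25 arrays lay below all E18 arrays, a fall of 1.46 ± 0.25 (adjusted p = 0.000214), and this was the only call of P25 against E18 that passed in every setting and fit. Against stage 1, where it ran from 10.99 to 11.53 with a median of 11.13, stage 4 ran from 9.68 to 11.03 with a median of 10.58, and the stages overlapped (-0.81 ± 0.16, adjusted p = 0.000461). Ndufs8, a core subunit with iron-sulfur clusters, ran from 8.41 to 8.98 with a median of 8.78 in stage 4, against 9.16 to 9.83 with a median of 9.31 in stage 1. These ranges did not overlap (-0.70 ± 0.20, adjusted p = 0.00721), though the call was lost in 1 of 13 settings. Ndufa12 (-0.59 ± 0.19) and Ndufs4 (-0.50 ± 0.17), neighbours in the peripheral arm, also fell, calls lost in 4 and 5 of 13 settings. Ndufb6, with the widest range of age means in complex I (1.88), was lowest at P9 (7.41 ± 0.74, SD) and highest at E18 (9.30 ± 0.26, SD), with an adjusted p of 0.069 in the F test. The core subunits Ndufs1 (-0.72 ± 0.31), Ndufs3 (0.21 ± 0.19), Ndufv1 (-0.11 ± 0.16) and Ndufv2 (-0.01 ± 0.21) did not pass.

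Ndufv3, a small subunit of the NADH-binding module, was the one bright gene of the chain with a clear rise. Its main probe set read 10.04, 10.53 and 10.93 at P25, against 9.45, 9.12 and 9.59 at E18, and every stage 4 array (10.04 to 10.93) lay above every stage 1 array (9.00 to 10.02). The rise was 0.89 ± 0.18 between stages 4 and 1 (adjusted p = 0.000521), 0.75 ± 0.20 between stages 4 and 3 (adjusted p = 0.0201) and 1.11 ± 0.28 between P25 and E18 (adjusted p = 0.0049). A second probe set of Ndufv3 did not share it: it read 6.72, 7.39 and 7.58 at P25, against 7.08, 8.61 and 7.99 at E18, and changed by -0.25 ± 0.29 between stages 4 and 1 (adjusted p = 0.495). With the mean of both probe sets the rise was 0.32 (adjusted p = 0.194), and with the 3 tissue marker means as covariates it was 0.59 (adjusted p = 0.111). Ndufa3 and Ndufb4, supernumerary subunits of the membrane arm, were higher by 0.49 ± 0.19 (adjusted p = 0.0439) and 0.50 ± 0.18 (adjusted p = 0.0303), and both missed the threshold without the 8 arrays with high muscle markers (adjusted p = 0.0788 and 0.0755).

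In complex II, Sdhb, the iron-sulfur subunit, read 8.44, 8.71 and 8.57 at P20 and 8.95, 9.07 and 8.61 at P25, against 9.73, 9.77 and 10.34 at E18. Stage 4 (median 8.66) lay wholly below stage 1 (median 9.61), by 0.94 ± 0.22 (adjusted p = 0.00175), and the level was already low at P15, where the arrays read 9.25, 7.69 and 8.42. The fall relative to the median of the brighter probe sets is smaller, since those fell by 0.38 themselves. Sdhd, a membrane anchor, was lower by 0.62 ± 0.23 (adjusted p = 0.0346), a call lost in 6 of 13 settings, while its partner Sdhc changed by -0.09 ± 0.19. Sdhaf2, which helps to attach FAD to the flavoprotein subunit of complex II, read 9.94, 9.52 and 9.43 at P25 and 9.74, 9.53 and 10.22 at P20, against 10.29 to 10.96 in stage 1. The stages did not overlap (-0.94 ± 0.16, adjusted p = 0.000103), with -0.68 ± 0.17 between stages 4 and 3 (adjusted p = 0.0184), a call lost in 4 of 13 settings. A second, dim probe set of Sdhaf2 (mean level 4.49) did not share the fall (0.00 ± 0.28, adjusted p = 0.998), and with the mean of both the calls of stage 4 against stage 3 (-0.50, adjusted p = 0.102) and of P25 against E18 (-0.23, adjusted p = 0.522) were lost. Among the assembly factors of complex I, Ndufaf7, an arginine methyltransferase, fell by 0.93 ± 0.31 (adjusted p = 0.0189), and its second probe set by 0.87 ± 0.23 (adjusted p = 0.00518). Both Ndufaf7 probe sets are dim, with mean levels of 6.27 and 5.36, and stages 4 and 1 overlapped in both.

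In complex III only Uqcrh, the hinge protein beside cytochrome c1, was called: stage 4 ran from 11.59 to 12.11 and stage 1 from 12.22 to 12.46, without overlap (-0.51 ± 0.15, adjusted p = 0.0113). The call was lost in 3 of 13 settings, among them quantile normalisation. Uqcrq, a small ubiquinone-binding subunit, passed the F test (adjusted p = 0.0408) with its lowest levels at P9 and P15. Its age means were 10.43 at E18, 10.37 at E20, 10.09 at P0, 10.03 at P2, 10.44 at P5, 9.45 at P9, 9.32 at P15, 10.04 at P20 and 9.78 at P25. The catalytic iron-sulfur protein Uqcrfs1 (0.02 ± 0.23) and the core proteins Uqcrc1 (-0.11 ± 0.16) and Uqcrc2 (-0.10 ± 0.19) did not pass between stages 4 and 1.

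**Figure D3:**
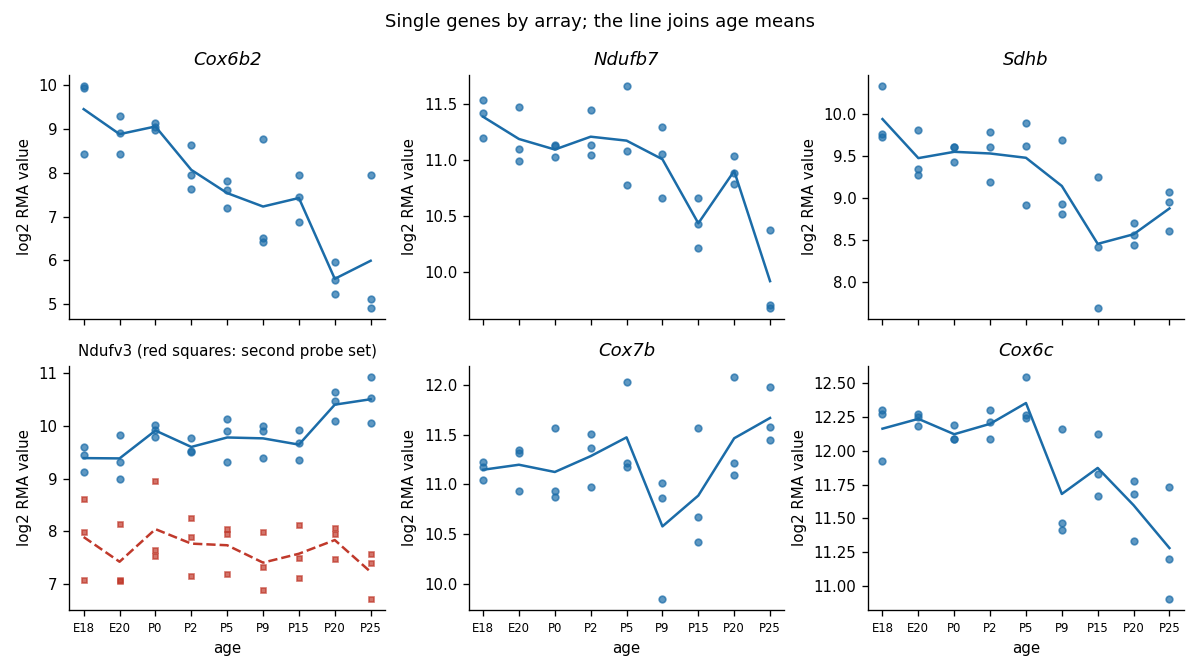
Log2 RMA value of 6 genes (y axis) in each of the 3 arrays of 9 ages (x axis), with a line through the age means; red squares are the second probe set of Ndufv3. Cox6b2 stood between 8.43 and 9.97 in stage 1 and under 6 in 5 of 6 stage 4 arrays, while the second probe set of Ndufv3 did not share the rise of the first.

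In complex IV, Cox6b2, known as the testis isoform of the Cox6b subunit, read 5.12, 4.92 and 7.94 at P25 and 5.23, 5.56 and 5.96 at P20, against 8.43, 9.97 and 9.93 at E18. All 9 stage 1 arrays (8.43 to 9.97) lay above all 6 stage 4 arrays (4.92 to 7.94), a change of -3.33 ± 0.42 (adjusted p = 2.61e-06). In 5 of 6 stage 4 arrays it read under 6, about or below the array medians, where background could not be read, so no fold is given. Age means were 9.44 at E18, 8.87 at E20, 9.05 at P0, 8.06 at P2, 7.53 at P5, 7.23 at P9, 7.42 at P15, 5.58 at P20 and 5.99 at P25. P25 replicate 3, at 7.94, stood above the other 2 arrays of its age, and it was also the P25 array with high muscle markers (9.22, against 5.44 and 6.01 in the others). Cox6b2 did not otherwise follow muscle markers: P9 replicate 3, with the most, read 6.42. Without the 8 arrays with high muscle markers the change was -4.05 (adjusted p = 1.78e-07). Its somatic partner Cox6b1 changed by -0.30 ± 0.17 (adjusted p = 0.155).

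Among the common subunits of complex IV, Cox6c was lower by 0.74 ± 0.15 (adjusted p = 0.000633), with stage 4 between 10.90 and 11.78 and stage 1 between 11.92 and 12.30. Cox5b, a zinc-binding regulatory subunit, read 9.87, 10.57 and 10.73 at P25, against 11.41, 11.39 and 11.63 at E18, and fell by 1.09 ± 0.29 between these ages (adjusted p = 0.00747) and by 0.71 ± 0.19 between stages 4 and 1 (adjusted p = 0.00421). Cox6a1 (-0.64 ± 0.21), Cox7a2l (-0.55 ± 0.13), Cox7c (-0.48 ± 0.18) and Cox4i1 (-0.45 ± 0.15) were lower too, calls lost in 2, 1, 5 and 2 of 13 settings. Cox5a (-0.15 ± 0.18) and Cox8a (0.33 ± 0.20) did not pass. Cox7a2l, the factor that joins complexes III and IV in supercomplexes, ran from 10.90 to 11.52 in stage 4 and from 11.45 to 11.94 in stage 1, with a narrow overlap. Cox7b was lowest at P9. It read 12.08, 11.22 and 11.09 at P20 and 11.44, 11.98 and 11.58 at P25, against 10.87, 9.85 and 11.02 at P9 and 11.57, 10.67 and 10.42 at P15, and the stages overlapped. Its rise in stage 4 over stage 3 was 0.83 ± 0.25 (adjusted p = 0.0401), a call lost in 4 of 13 settings, and it was not called against stage 1 (0.41 ± 0.23).

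Of the isoforms of complex IV, Cox6a2 and Cox8b varied between arrays of 1 age along with muscle markers, while Cox7a1 did not. Cox6a2 and Cox8b, isoforms of heart and skeletal muscle, had wide ranges of age means (3.39 and 4.22, with 3.86 for Cox6b2), yet neither passed the F test (adjusted p = 0.268 and 0.0716) or any contrast. Cox6a2 read 9.40, 5.28 and 5.09 in the E18 arrays, where muscle markers averaged 10.44, 5.86 and 6.13, and Cox8b read 9.43, 8.74 and 7.98 in the E20 arrays, where they averaged 10.47, 7.89 and 5.51. P9 replicate 3, with the most muscle markers of all arrays (11.96), had the highest values of both, 10.78 and 11.30. In 7 of 9 ages the array with the most muscle markers also had the highest Cox6a2, and in 7 of 9 the highest Cox8b. Over the 27 arrays Pearson's r with the muscle markers was 0.89 for Cox6a2 and 0.87 for Cox8b, given as a description of arrays that share ages. In the 8 arrays with high muscle markers Cox6a2 ran from 6.97 to 10.78 and Cox8b from 7.67 to 11.30, against 4.54 to 7.76 and 3.78 to 9.36 in the other 19. The dim isoforms Cox4i2 (mean 5.26), Cox7a1 (5.04) and Ndufa4l2 (5.78) did not pass between stages 4 and 1. Cox7a1, also an isoform of heart and muscle, had an r of -0.15 with the muscle markers and read 4.68 in P9 replicate 3. In 2 of 9 ages the array with the most muscle markers had the highest Cox7a1. The part of captured muscle in the other results was not tested.

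**Figure D4:**
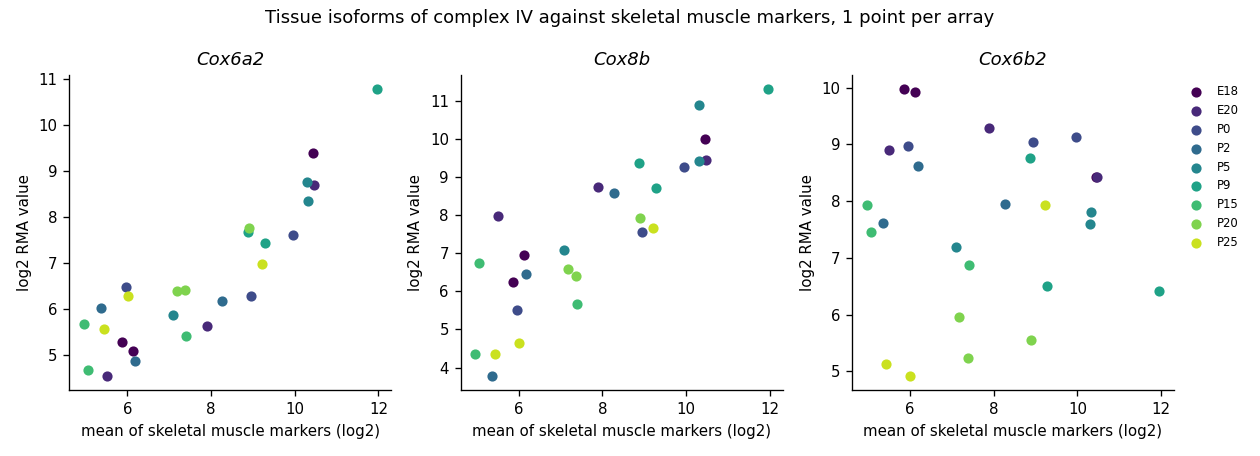
Log2 RMA value of 3 complex IV isoforms (y axes) against the mean of 15 skeletal muscle markers (x axis, log2), 1 point per array coloured by age. Cox6a2 and Cox8b climb with the markers (r of 0.89 and 0.87 over 27 arrays), while Cox6b2 is ordered by age.

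In complex V, Atp5pf (coupling factor 6 of the stalk) ran from 10.15 to 10.69 in stage 4 with a median of 10.46, against 11.01 to 11.27 with a median of 11.18 in stage 1. Every stage 4 array was below every stage 1 array (-0.71 ± 0.14, adjusted p = 0.000606). Atp5mk, a small membrane subunit at the dimer interface, also separated, with 11.09 to 11.73 in stage 4, against 11.82 to 12.30 in stage 1 (-0.71 ± 0.17, adjusted p = 0.00219). The catalytic beta subunit Atp5f1b fell by 0.56 ± 0.15 (adjusted p = 0.00577) and by 0.74 ± 0.24 between P25 and E18 (adjusted p = 0.0211). These calls were lost in 1 and 3 of 13 settings, with quantile normalisation among them each time. The alpha subunit Atp5f1a, its partner in the catalytic head, changed by -0.24 ± 0.21 (adjusted p = 0.348), and the difference between these subunits was not tested. The gamma subunit Atp5f1c (-0.44 ± 0.15), Atp5pd (-0.51 ± 0.18), Atp5mf (-0.37 ± 0.14) and the inhibitor Atp5if1 (-0.55 ± 0.15) were lower as well. Their calls were lost in 4, 5, 6 and 2 of 13 settings, in that order, with quantile normalisation among them each time. For Atp5if1 2 dimmer probe sets did not share the fall (-0.26, adjusted p = 0.153, and 0.47, adjusted p = 0.0505), and with the mean of all 3 the change was -0.11 (adjusted p = 0.518). The proton-carrying c subunit read through Atp5mc3 (-0.08 ± 0.13), and the delta and epsilon subunits Atp5f1d (0.29 ± 0.21) and Atp5f1e (0.24 ± 0.14), did not pass.

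P25 against E18, the ends of the series, called 12 of 89 (13.5%), against 33.5% of all probe sets: 11 lower (against 13.4% of all probe sets) and Ndufv3 higher (against 20.1%). The falls were those of Cox6b2 (-3.45 ± 0.64), Ndufb7, Ndufaf7 (-1.33 ± 0.48), Cox5b, Sdhb (-1.07 ± 0.34), Cox6a1 (-0.90 ± 0.32), Cox6c (-0.89 ± 0.23), Sdhaf2 (-0.84 ± 0.25), Atp5mk (-0.82 ± 0.26), Atp5f1b and Atp5pf (-0.72 ± 0.22). With quantile normalisation 5 were lower and 2 higher, where 24.2% of all probe sets were called. Stage 4 against stage 3 called 4 (4.49%, against 8.36% of all probe sets): Ndufv3 and Cox7b higher (4.09% of all probe sets were) and Cox6b2 (-1.54 ± 0.46, adjusted p = 0.0392) and Sdhaf2 lower (4.27% were). Without P20 replicate 1 only Sdhaf2 was left, without P9 replicate 2 Cox6b2 with Ndufa12, and without P15 replicate 2 or P25 replicate 2 Ndufv3 with Sdhaf2.

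Genes around the chain were read for comparison from lists and symbol families. Counts of stage 4 against stage 1 are to be read against all probe sets, of which 27.2% were higher and 17.8% lower. Of 18 measured glycolysis and lactate genes 10 were lower (55.6%) and none higher, with a median of -0.87, and 11 were lower and none higher at P25 against E18 (61.1%, against 13.4% of all probe sets lower), with a median of -1.41. Aldoc, an aldolase, read 6.02, 5.29 and 7.75 at P25, against 8.62, 9.55 and 9.26 at E18, and fell by 2.70 ± 0.34 between stages 4 and 1 (adjusted p = 2.7e-06). Eno2 (-2.46 ± 0.32), Eno1 (-1.50 ± 0.20), Pgk1 (-1.47 ± 0.19), Ldha (-1.30 ± 0.30) and Gpi (-1.26 ± 0.21) fell with it. With quantile normalisation 9 were lower and none higher in both contrasts. Of all probe sets 33.8% were then called in stage 4 against stage 1 and 24.2% at P25 against E18. Of 22 genes of the TCA cycle and pyruvate entry 5 were higher and 5 lower (22.7% each, median 0.07), near the shares over all probe sets, and 7 were higher and 3 lower with quantile normalisation (median 0.23). Pdk2, a kinase that shuts pyruvate dehydrogenase, rose by 1.88 ± 0.34, while Dld, the shared dihydrolipoamide dehydrogenase, fell by 1.43 ± 0.30 and the cytosolic malate dehydrogenase Mdh1 by 0.82 ± 0.17.

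**Figure D5:**
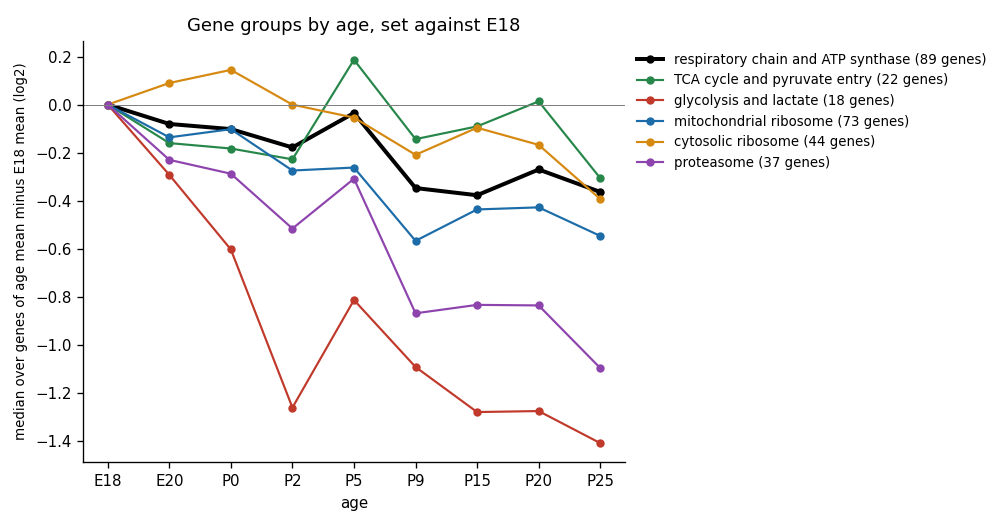
Median over the genes of each group of the age mean minus the E18 mean (y axis, log2) at 9 ages (x axis, equal spacing). At P25 the chain and synthase stood at -0.36, the TCA cycle at -0.31, the cytosolic ribosome at -0.39, the mitochondrial ribosome at -0.55, the proteasome at -1.10 and glycolysis at -1.41.

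Counts of ribosome and proteasome genes leaned to the lower side. Of 73 mitochondrial ribosomal protein genes 31 were lower and 3 higher in stage 4 against stage 1 (median -0.51), of 44 cytosolic ribosomal protein genes 27 were lower and 1 higher (median -0.36), and of 37 proteasome genes 26 were lower and 1 higher (median -0.75). Probe sets at mean level 8 or more had a median of -0.38, which the cytosolic ribosome did not pass. With quantile normalisation 17 were lower and 5 higher of the mitochondrial ribosome (median -0.28), 21 lower and 1 higher of the cytosolic (-0.23) and 18 lower and 2 higher of the proteasome (-0.50). In that fit 33.8% of all probe sets were called. The differences between these groups and the chain were not tested. Of 35 further assembly factors and electron carriers 8 were lower and 4 higher (3 lower and 6 higher with quantile normalisation), among them Etfa, an electron transfer flavoprotein subunit (-0.69 ± 0.19), and Cox11, a copper chaperone of complex IV (0.77 ± 0.17). The other, dimmer probe sets of Cox11 did not pass (0.78 ± 0.42, adjusted p = 0.135, and -0.08 ± 0.42, adjusted p = 0.899). Of 12 coenzyme Q genes 3 were higher (25%) and 2 lower (16.7%), near the shares over all probe sets. The kinase-like Coq8a rose by 1.52 ± 0.25 and the methyltransferase Coq3 fell by 1.86 ± 0.32.

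Of 22 regulators of mitochondrial content 5 were higher and 5 lower (22.7% each, against 27.2% and 17.8% of all probe sets), so the count does not set them apart. Ppargc1a, the coactivator PGC-1alpha, read 8.44, 8.49 and 9.10 at P25, against 5.35, 6.60 and 6.32 at E18, and rose by 2.06 ± 0.28 between stages 4 and 1 (adjusted p = 6.92e-06); its 2 other probe sets rose as well (2.38 and 1.87). Esrra, the receptor ERR-alpha that it coactivates, rose by 1.18 ± 0.21 (adjusted p = 0.000171) and the dim Esrrb by 0.73 ± 0.14. Tfam, which packs mitochondrial DNA and activates its transcription, read 8.0, 7.14 and 6.90 at P25, against 8.70, 8.95 and 9.05 at E18, and fell by 1.70 ± 0.24 (adjusted p = 1.32e-05). Polg, the mitochondrial DNA polymerase (-1.07 ± 0.26), and Nrf1 (-0.92 ± 0.21) fell too, though a dimmer probe set of each changed upwards (0.45, adjusted p = 0.0274 for Polg, and 0.70, adjusted p = 0.00779 for Nrf1). The remaining Nrf1 probe set did not share the fall either (0.23 ± 0.22, adjusted p = 0.407). Perm1, a muscle regulator, passed the F test but ran from 4.67 to 10.09 within stage 1, where muscle markers ran from 5.51 to 10.47.

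Among carriers that serve the synthase, Slc25a4, the ADP/ATP carrier of heart and muscle, read 8.28, 8.66 and 8.54 at P25, against 11.39, 11.33 and 11.28 at E18, and fell by 2.15 ± 0.22 between stages 4 and 1 (adjusted p = 2.12e-07) with no overlap. Slc25a5, the carrier of most other tissues, ran from 11.13 to 11.49 in stage 4, against 10.28 to 11.05 in stage 1, and rose by 0.60 ± 0.15 (adjusted p = 0.00311), also with no overlap. The phosphate carrier Slc25a3 fell by 0.91 ± 0.19. Ucp2, an uncoupling protein family member, rose by 1.82 ± 0.17 (adjusted p = 3.49e-08) and the mitochondrial creatine kinase Ckmt1 by 3.75 ± 0.62 (adjusted p = 7.75e-05). Of the 19 measured genes of this list 5 were higher (26.3%) and 4 lower (21.1%), near the shares over all probe sets. Ucp1, the uncoupling protein of brown fat, passed the F test (adjusted p = 0.0039), and brown fat markers averaged 7.01 at P5, against 5.21 at E18. The part of brown fat in the P5 values of the chain was not tested.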

How the data were processed

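Acinar cells were captured by laser from parotid sections, and their amplified RNA was read on Affymetrix rat genome expression arrays. The methods name the hybridised material as cDNA and the labels as cRNA. The labels also give 2 input amounts of RNA without saying which arrays had which, so unequal input cannot be told apart from the groups. The authors deposited log2 values of the standard robust multi-array average (background correction, normalisation and summary per probe set). The software and its version are not given in the sources used here. Raw probe intensities were not used, so saturation and background could not be read. The table held 31099 probe sets. Of these 57 array controls were left out and 31042 tested. A probe set was named from the platform annotation, and those with 1 symbol (20826) gave 14217 genes. All 89 genes of the family matched the reference by gene ID.

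The values were fitted with limma 3.58.1 in R 4.3.3, 1 coefficient per age (18 residual degrees of freedom), with eBayes, two-sided tests and Benjamini-Hochberg adjustment over all tested probe sets at 0.05. Stages were means of their ages. The fit was tested on simulated data. The 3 arrays of an age were separate litters per the study's methods, no 2 arrays held identical values, and their number limits the precision. Genes past a test could be named, with full values for the 4 largest rises and falls in each contrast, the 3 widest ranges per complex, tissue isoforms with partners and disagreeing probe sets. Of other lists, regulators past the F test and up to 4 further genes were to be named. Some others are named beside them and were chosen after their values were seen. The members and lists were chosen with earlier results of these data known. Alternatives covered scaling, array weights, the replicate block, variance trend, dim and duplicate probe sets, RNA quality, tissue markers and leaving out arrays. Promoters came from RefSeq (GRCr8).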

Additional observations from a re-analysis of the deposited data

How the results depend on the processing

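None of the 45 calls of single genes in a contrast reversed in any of the 13 other settings or the 27 fits without 1 array. The test over 9 ages called 10 genes, and the totals called in other settings, not all of them among these 10, were 5 with quantile normalisation, 17 with array weights, 16 with an intensity trend and robust variances, 5 with the GAPDH 3' to 5' difference as a covariate, 3 with tissue markers as covariates, 6 without 4 doubted arrays (P5 replicate 2 and the first replicates of E18, E20 and P0), and 3 without the 8 arrays with the most muscle markers, a setting chosen after seeing the data. Leaving out 1 array gave 7 to 12. For stage 4 against stage 1 (29) the counts were 14 with tissue markers, 15 without the 4 arrays and 14 without the 8, and 16 to 30 without 1 array. For P25 against E18 (12) they were 7 with quantile normalisation, 7 with array weights, 19 with the trend, 6 with tissue markers, 7 without the 4 arrays, 5 without the 8, 1 with only the ages compared, and 9 to 16 without 1 array. For stage 4 against stage 3 (4) they were 7 with quantile normalisation, 2 with the mean of all probe sets, 1 with tissue markers, 2 without the 4 arrays, 0 with only the ages compared, and 1 to 5 without 1 array. For stage 3 against stage 2 (0) array weights gave 6 and leaving out 1 array 0 to 1 (Atp5if1 or Uqcrq). For stage 2 against stage 1 (0) array weights, only the ages compared and leaving out the 8 arrays each gave 1 (Cox6b2, lower), and leaving out 1 array 0 to 1. For the middle against the outer stages (0) quantile normalisation, the replicate block, the trend, leaving out dim probe sets and leaving out the 8 arrays each gave 1 (higher), and leaving out 1 array 0 to 1. The complex V median of -0.27 between stages 4 and 1 was -0.044 with quantile normalisation. Without the 8 arrays the complex II median between stages 4 and 1 was -0.306 (-0.62 with all), and the medians between stages 3 and 2 were 0.036 in complex III (-0.19) and 0.142 in the assembly factors (-0.14), both turned in sign. Without 1 array the median of all genes ran from -0.26 to -0.14 between stages 4 and 1 and from -0.33 to -0.22 between stages 3 and 2. The causes were not tested.

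Deviations of arrays with the same replicate number had a median r of 0.01 (-0.11 to 0.46, 108 pairs), against -0.01 (-0.28 to 0.14) for different numbers. Not every same-number pair was above 0.1, so the numbers were taken not to pair samples. Still, 16 of 27 arrays correlated best with their own number, a hint from the data that some same-numbered arrays share more than the number. With the replicate block 44 of the 45 calls were kept and Cox7b2 was lost.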
